A study of Mus musculus with 9 samples.

Results

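The genes described here encode the machinery that docks, primes, fuses and recycles synaptic vesicles. They were chosen by name alone, as the protein-coding genes of the synaptotagmin (Syt), vesicle-associated membrane protein (Vamp), syntaxin (Stx), syntaxin-binding (Stxbp), complexin (Cplx), Rims and synaptogyrin (Syngr) families together with the synapsins Syn1 to Syn3, Snap25, Snap47, Sv2a to Sv2c, Syp, Unc13a to Unc13c, Bsn, Pclo, Nsf, Napa and Napb. Of the 47729 gene identifiers counted, 76 met this rule, and 71 of the 76 had enough counts to be tested among 17671 genes. The 5 that did not were Cplx4, Stx19, Syngr4, Syt8 and Vamp9, none of which exceeded 3 counts in any library.

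RNA was sequenced from midbrain dissected at postnatal day 180 from C57/Bl6 mice that carried no floxed Dot1l allele, Dot1l(+/+), a single one, Dot1l(fl/+), or only floxed ones, Dot1l(fl/fl). Every group, controls included, carried Pitx3-Cre/+ and the Rosa-lox-stop-lox-Yfp reporter, so the groups differ by design only in the number of floxed Dot1l alleles, 0, 1 or 2. Dot1l is the histone methyltransferase that places methyl groups on lysine 79 of histone H3. There were 3 libraries per genotype, each made from pooled mice. Cre from the Pitx3 locus acts in midbrain dopamine neurons, a minority of the cells in a midbrain dissection, whereas most members are expressed in neurons of every kind. In such bulk tissue, fewer cells of a type and less RNA per cell cannot be told apart.

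An action potential opens calcium channels at the presynaptic active zone, and calcium binding to a synaptotagmin triggers fusion of a vesicle already primed there. Fusion is driven by a SNARE bundle of a vesicle synaptobrevin (Vamp), a plasma membrane syntaxin and Snap25, assembled with the help of Unc13 (Munc13) proteins and clamped by complexins. Nsf and its alpha- and beta-SNAP adaptors (Napa and Napb) pull the used bundle apart. Dopamine neurons use this same apparatus both at axon terminals and for release from cell bodies and dendrites.

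The libraries held between 16422135 and 28403218 counts, of which the 76 members took 1.89% to 2.01%. Dot1l itself lay at 80.2 to 85.2 CPM (counts scaled to library size) in Dot1l(+/+), at 84.2, 60.6 and 75.6 CPM in Dot1l(fl/+) and at 73.9 to 82.9 CPM in Dot1l(fl/fl), and the genotypes overlapped. These counts cover the whole gene, not the floxed part, and come from all cells. The labels name the tissue midbrain dopamine neurons, but the summed level of 8 oligodendrocyte markers was 10507.6 to 12055.4 CPM and that of 10 dopamine neuron markers 480 to 699 CPM. The dopamine markers summed to 633 to 699 CPM in Dot1l(+/+), 495 to 641 CPM in Dot1l(fl/+) and 480 to 512 CPM in Dot1l(fl/fl), whereas 10 general neuronal markers stayed at 5061.8 to 5430.5 CPM throughout. Markers of regions beside the midbrain were uneven. The 8 hypothalamic markers summed to 126 and 59.0 CPM in Dot1l(fl/+) replicates 1 and 3 and to at most 9.55 CPM in the other 7 libraries, and 4 choroid plexus markers summed to 53.6 to 137 CPM in Dot1l(+/+), to 95.8, 159 and 551 CPM in Dot1l(fl/+) and to 27.8 to 35.4 CPM in Dot1l(fl/fl), where every library was below the other 6. The part of these differences in the results below was not tested.

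In the control midbrain the machinery was abundant and its level repeatable. Averaged over the 9 libraries, 37 members lay at 100 CPM or more, 25 between 20 and 100 CPM, 8 between 1 and 20 CPM and 6 under 1 CPM. The coefficient of variation between the 3 control libraries had a median of 3.54% over the tested members. Levels were compared between genes per length, as CPM per kilobase of annotated exons (RPKM). Cplx1, a complexin, had the highest level at 376 ± 11.2 RPKM (SD, n = 3). Snap25, the SNARE anchored to the plasma membrane by lipid chains, followed at 305 ± 8.77 RPKM, and the ranges of these 2 genes over the control libraries met neither each other nor that of the next gene. Cplx2 (200 ± 14.7 RPKM), the vesicle protein synaptophysin Syp (194 ± 5.07 RPKM) and Syt11 (190 ± 2.81 RPKM) came next, each overlapping its neighbour in the order, so the order of these 3 was not resolved. Vamp2 was at 176 ± 9.99 RPKM. The 10 highest members together held 55.6% of the summed RPKM of all members.

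**Figure D1:**
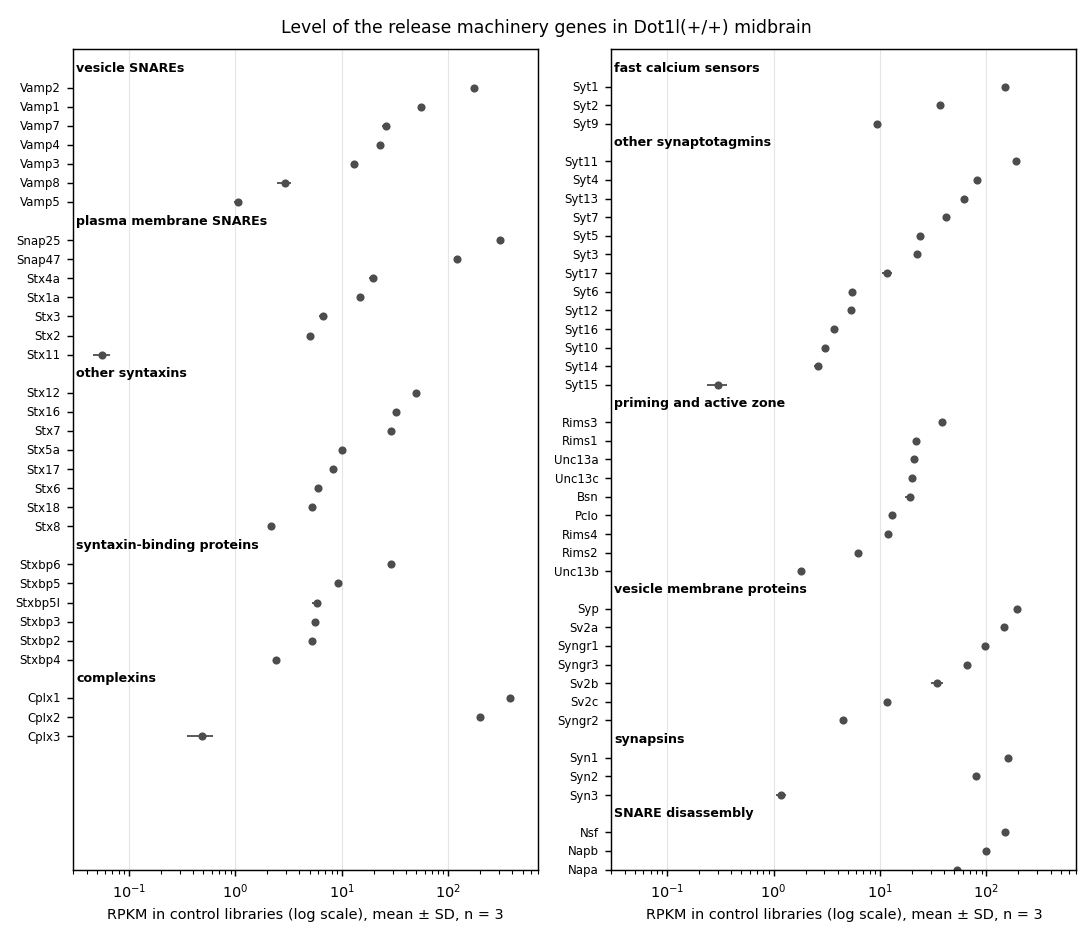
Level of the tested members in the Dot1l(+/+) libraries, in RPKM on a logarithmic axis, grouped by role; points are means and bars are SD over 3 libraries. Cplx1 at 376 RPKM and Snap25 at 305 RPKM lead, and Stx11 at 0.0562 RPKM is the lowest tested member.

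Within most families a single paralog held the largest share by a wide margin on the RPKM scale, which divides by all annotated exon bases. In control CPM, with no such division, Syn2 (563) was above Syn1 (526), Cplx2 (988) above Cplx1 (823) and Syt1 (1245.0) above Syt11 (987). The leading paralogs of the Vamp, Sv2, Unc13 and Rims families were the same on both scales. In control midbrain Vamp2 held 59.2% ± 1.57 (SD, n = 3) of the summed RPKM of the Vamp family and Vamp1 18.6% ± 1.07. Cplx1 held 65.2% ± 2.12 of the complexins with Cplx2 at 34.7% ± 2.11, and Syn1 66.3% ± 0.722 of the synapsins. Sv2a made up 76.2% ± 2.00 of the Sv2 family, and Sv2c, the form known for its expression in basal ganglia and dopamine neurons, 6.00% ± 0.144. The Unc13 and Rims families were shared more evenly: Unc13a held 48.7% ± 0.763 and Unc13c 47.0% ± 0.565 of Unc13, while Rims3 held 48.7% ± 0.613 of the Rims family and Rims1 28.2% ± 0.664. Among the 17 synaptotagmins, Syt11, which does not bind calcium, held 29.3% ± 0.141 and the fast calcium sensor Syt1 23.0% ± 0.800, so the trigger of fast release was not the synaptotagmin with the highest level per length.

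The comparison of genotypes asked whether loss of 1 or both Dot1l alleles was accompanied by altered levels of this machinery. It was made with edgeR's quasi-likelihood test over all 17671 genes, with Benjamini-Hochberg adjustment over all of them. No member passed an adjusted p of 0.05 in any of the 3 comparisons, nor did any gene in the data, a share of 0% in each. The lowest adjusted p of a member was 0.541 for Dot1l(fl/+) against Dot1l(+/+), 0.999 for Dot1l(fl/fl) against Dot1l(+/+) and 0.641 for Dot1l(fl/fl) against Dot1l(fl/+). DESeq2 on the same 9 libraries also found 0 members past an adjusted p of 0.05 in each comparison. The share of all genes past that threshold was counted for edgeR and not for DESeq2. The comparisons share libraries and are not independent of each other.

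At an unadjusted p under 0.05, the edgeR test gave 7 of 71 members in Dot1l(fl/+) against Dot1l(+/+), 4 higher and 3 lower, or 5.63% and 4.23% of the members. Over all genes the shares were 4.30% higher and 4.09% lower. In Dot1l(fl/fl) against Dot1l(+/+) there were 2 members, 1 higher and 1 lower, or 1.41% in each direction against 2.21% and 1.72% of all genes. In Dot1l(fl/fl) against Dot1l(fl/+) there were 7 members, of which 6 were higher (8.45%, against 3.60% of all genes) and 1 lower (1.41%, against 2.87%). Stx11 is 1 of the higher members in both comparisons of Dot1l(fl/fl), but it passed the filter on low counts (0.393 CPM in 3 libraries) only through its Dot1l(fl/fl) libraries, so that its direction was set by the filter. Without it, 0 of 70 members were higher at this threshold against Dot1l(+/+) and 5 of 70 (7.14%) against Dot1l(fl/+). DESeq2 on the 9 libraries gave 9, 1 and 7 of 76 members at this threshold, where the shares of all genes were 4.42%, 1.74% and 3.31%. In fits of Dot1l(fl/fl) and Dot1l(+/+) alone there were 5 of 71 members in edgeR (5.57% of all genes), or 4 of 70 without Stx11, and 6 of 74 in DESeq2 (2.12% of all genes). Without Dot1l(fl/+) replicate 2, the comparison of Dot1l(fl/fl) with Dot1l(fl/+) gave 10 of 71 members (9.79% of all genes), 4 higher and 6 lower, or 3 higher and 6 lower without Stx11, so the lean to higher members was not kept. The DESeq2 fits had no filter on low counts, so their shares of all genes take in genes with few counts, unlike those of edgeR here. How the share of members stood to that of all genes differed between edgeR fits and libraries. The DESeq2 shares cannot be set beside those of edgeR.

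The count of members whose 3 libraries did not overlap between genotypes was read the same way. For Dot1l(fl/+) against Dot1l(+/+), 8 members lay wholly above and 5 wholly below the controls (11.3% and 7.04%), where 6.84% and 6.47% of all genes did so. For Dot1l(fl/fl) against Dot1l(+/+), 4 lay above and 7 below (5.63% and 9.86%), against 5.03% and 5.25% of all genes. For Dot1l(fl/fl) against Dot1l(fl/+), 7 lay above and 5 below (9.86% and 7.04%), against 5.98% and 5.14%. Without Stx11 the higher counts in these last 2 comparisons were 3 and 6. The median log2 fold change of the tested members was -0.022, 0.0012 and -0.0026 in the 3 comparisons, in that order, beside -0.0034, 0.0009 and 0.0015 over all genes.

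The size of change that the data leave room for was small for most of the machinery. Among the 62 members at 20 CPM or more, with all libraries kept, the log2 fold change lay between -0.13 and 0.13 in Dot1l(fl/fl) against Dot1l(+/+), between -0.21 and 0.20 in Dot1l(fl/+) against Dot1l(+/+), and between -0.20 and 0.28 in Dot1l(fl/fl) against Dot1l(fl/+). The 95% interval of all 62 lay within 0.5 of zero on the log2 scale in each of the 3 comparisons. It lay within 0.25 of zero for 47 of these 62 members in Dot1l(fl/fl) against Dot1l(+/+), for 37 in Dot1l(fl/+) against Dot1l(+/+) and for 42 in Dot1l(fl/fl) against Dot1l(fl/+). The median standard error of a log2 fold change was 0.069 over the tested members and 0.10 over all genes. Leaving out 1 library moved some members beyond the ranges above. Without Dot1l(fl/+) replicate 2, Rims3 was at 0.32 against Dot1l(+/+), and at -0.35 in Dot1l(fl/fl) against Dot1l(fl/+). In Dot1l(fl/fl) against Dot1l(+/+), Sv2b reached 0.20, Vamp2 0.18 and Bsn -0.17 with 1 library left out.

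**Figure D2:**
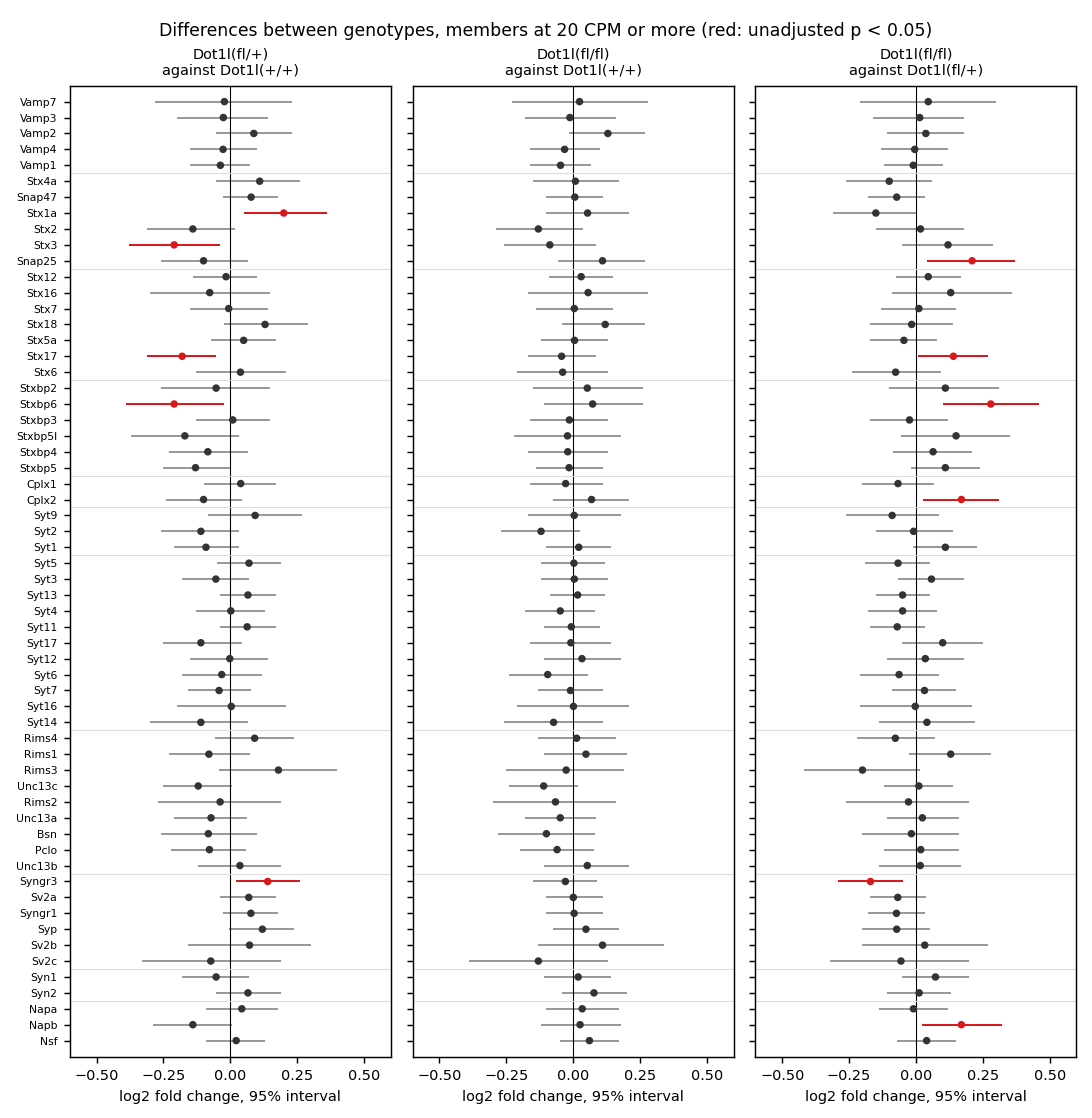
Log2 fold change (points) and 95% interval (lines) of members at 20 CPM or more in the 3 comparisons, ordered by role, with red for an unadjusted p under 0.05 in the edgeR test. In the middle panel, Dot1l(fl/fl) against Dot1l(+/+), all points lie between -0.13 and 0.13 and none is red.

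The vesicle SNAREs are the Vamp proteins, of which Vamp2 and Vamp1 serve fast transmitter release and the others mostly endosomal and constitutive traffic. With all libraries, none of the 7 tested had an unadjusted p under 0.05 in the edgeR test in any comparison. Vamp2 lay at 639, 658 and 713 CPM in Dot1l(+/+), at 708, 680 and 748 CPM in Dot1l(fl/+), and at 720, 792 and 680 CPM in Dot1l(fl/fl). The genotypes overlapped, and Dot1l(fl/fl) differed from Dot1l(+/+) by a log2 fold change of 0.13 ± 0.066 (SE; edgeR unadjusted p = 0.0800, adjusted p = 0.999), with an unadjusted p of 0.0269 to 0.350 over 15 other settings and under 0.05 in 4 of them. Vamp1 was at 552, 589 and 543 CPM in controls and at 542, 539 and 550 CPM in Dot1l(fl/fl), a log2 difference of -0.047 ± 0.052 with a 95% interval from -0.16 to 0.065.

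Of the plasma membrane SNAREs, Snap25 had the most counts of any member. It lay at 2103.3, 2113.4 and 2005.6 CPM in Dot1l(+/+), at 2131.2, 1677.6 and 2000.3 CPM in Dot1l(fl/+), and at 2314.0, 2256.0 and 2137.6 CPM in Dot1l(fl/fl). The 3 homozygous libraries were above all 6 others, and Dot1l(fl/+) replicate 2 was below all others. Snap25 (chr2:136713453-136782428, GRCm38) differed by 0.21 ± 0.076 on the log2 scale between Dot1l(fl/fl) and Dot1l(fl/+) (edgeR unadjusted p = 0.0170, adjusted p = 0.726). Against Dot1l(+/+) the difference was 0.11 ± 0.076, a mean 7.80% higher (unadjusted p = 0.178, adjusted p = 0.999). Without Dot1l(fl/+) replicate 2 the difference between the floxed genotypes was 0.11 (unadjusted p = 0.0574), and with a term for gene length and GC content it was also 0.11 (unadjusted p = 0.191).

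Stx1a (chr5:135023482-135051100), a syntaxin of the neuronal fusion bundle at 14.8 ± 0.953 RPKM in controls, lay at 39.2, 37.0 and 42.1 CPM in Dot1l(+/+), at 41.9, 47.2 and 47.3 CPM in Dot1l(fl/+), and at 40.5, 42.9 and 39.3 CPM in Dot1l(fl/fl). Dot1l(fl/+) exceeded Dot1l(+/+) by a log2 fold change of 0.20 ± 0.071 (edgeR unadjusted p = 0.0129, adjusted p = 0.541), with 1 heterozygous library inside the control range. Leaving out Dot1l(+/+) replicate 2 gave 0.17 (unadjusted p = 0.0552).

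Stx3, a syntaxin of ribbon synapses and of dendritic exocytosis, lay at 34.8, 38.7 and 40.1 CPM in Dot1l(+/+), at 35.2, 33.5 and 29.8 CPM in Dot1l(fl/+), and at 35.0, 34.4 and 37.7 CPM in Dot1l(fl/fl). Dot1l(fl/+) and Dot1l(+/+) touched at the lowest control, and Stx3 (chr19:11775118-11819403) differed between them by -0.21 ± 0.079 (edgeR unadjusted p = 0.0209, adjusted p = 0.541). With 1 library left out in turn the difference lay between -0.26 and -0.14, and the unadjusted p was 0.0660 without Dot1l(+/+) replicate 2, 0.0914 without Dot1l(+/+) replicate 3 and 0.0967 without Dot1l(fl/+) replicate 3. Stx11, a syntaxin of immune cell granule release, had 3 to 13 counts per library. It lay at 0.189, 0.258 and 0.263 CPM in Dot1l(+/+), at 0.157, 0.389 and 0.114 CPM in Dot1l(fl/+), and at 0.480, 0.514 and 0.607 CPM in Dot1l(fl/fl), and the 3 homozygous libraries were the only ones to reach the filter of 0.393 CPM. A gene that enters through 1 genotype alone has to be high there, so the log2 fold change of Stx11 (chr10:12938209-12964298), 1.13 ± 0.46 against Dot1l(+/+) and 1.22 ± 0.45 against Dot1l(fl/+), is given as a description with no test. The 6 microglial markers, genes of the brain's resident immune cells, summed to 206 to 218 CPM in Dot1l(+/+), 206 to 237 CPM in Dot1l(fl/+) and 231 to 248 CPM in Dot1l(fl/fl). Their part in the Stx11 values was not tested.

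The other 8 syntaxins work mainly in endosomes, the Golgi and autophagy. Stx17, the syntaxin that joins autophagosomes to lysosomes, lay at 49.2, 49.1 and 47.1 CPM in Dot1l(+/+), at 45.4, 42.1 and 40.6 CPM in Dot1l(fl/+), and at 47.7, 46.1 and 47.4 CPM in Dot1l(fl/fl). The heterozygous libraries were below all others. Stx17 (chr4:48124915-48186507) differed by -0.18 ± 0.060 between Dot1l(fl/+) and Dot1l(+/+) (edgeR unadjusted p = 0.00935, adjusted p = 0.541), and its unadjusted p stayed under 0.05 in 15 of 15 other settings, between 0.00284 and 0.0421. Against Dot1l(fl/+), Dot1l(fl/fl) was higher by 0.14 ± 0.060 (unadjusted p = 0.0381, adjusted p = 0.746), which was under 0.05 in 4 of 15 other settings. Stx8, an endosomal syntaxin, lay at 14.8, 16.3 and 15.0 CPM in Dot1l(+/+), at 16.5, 20.6 and 17.2 CPM in Dot1l(fl/+), and at 16.8, 17.3 and 13.8 CPM in Dot1l(fl/fl). Dot1l(fl/+) replicate 2 was the highest of the 9 libraries, and the log2 fold change of Stx8 (chr11:67966193-68207148) in Dot1l(fl/+) against Dot1l(+/+) was 0.24 ± 0.11 with all libraries (unadjusted p = 0.0482, adjusted p = 0.591) and 0.14 without that library (unadjusted p = 0.230).

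Among the syntaxin-binding proteins, Stxbp6 (amisyn), which competes with synaptobrevin for the SNARE bundle, had the lowest p of any member between the floxed genotypes. It lay at 144, 164 and 154 CPM in Dot1l(+/+), at 145, 112 and 144 CPM in Dot1l(fl/+), and at 156, 167 and 163 CPM in Dot1l(fl/fl). The homozygous libraries were above all 3 heterozygous ones, while the controls overlapped both. Stxbp6 (chr12:44852484-45074709) was higher in Dot1l(fl/fl) than in Dot1l(fl/+) by 0.28 ± 0.086 (edgeR unadjusted p = 0.00596, adjusted p = 0.641), with an unadjusted p under 0.05 in 15 of 15 other settings. With no filter on low counts it was 0.27 ± 0.060 (unadjusted p = 5.61e-06) and passed the adjustment (adjusted p = 0.00224), and it did not in the other 14 settings. With Dot1l(fl/+) replicate 2 left out the difference was 0.17 ± 0.057 (unadjusted p = 0.0116, adjusted p = 0.344). Against Dot1l(+/+), Dot1l(fl/+) was lower by -0.21 ± 0.086 (unadjusted p = 0.0310, adjusted p = 0.559) with all libraries and by -0.093 ± 0.057 (unadjusted p = 0.127) without that replicate.

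**Figure D3:**
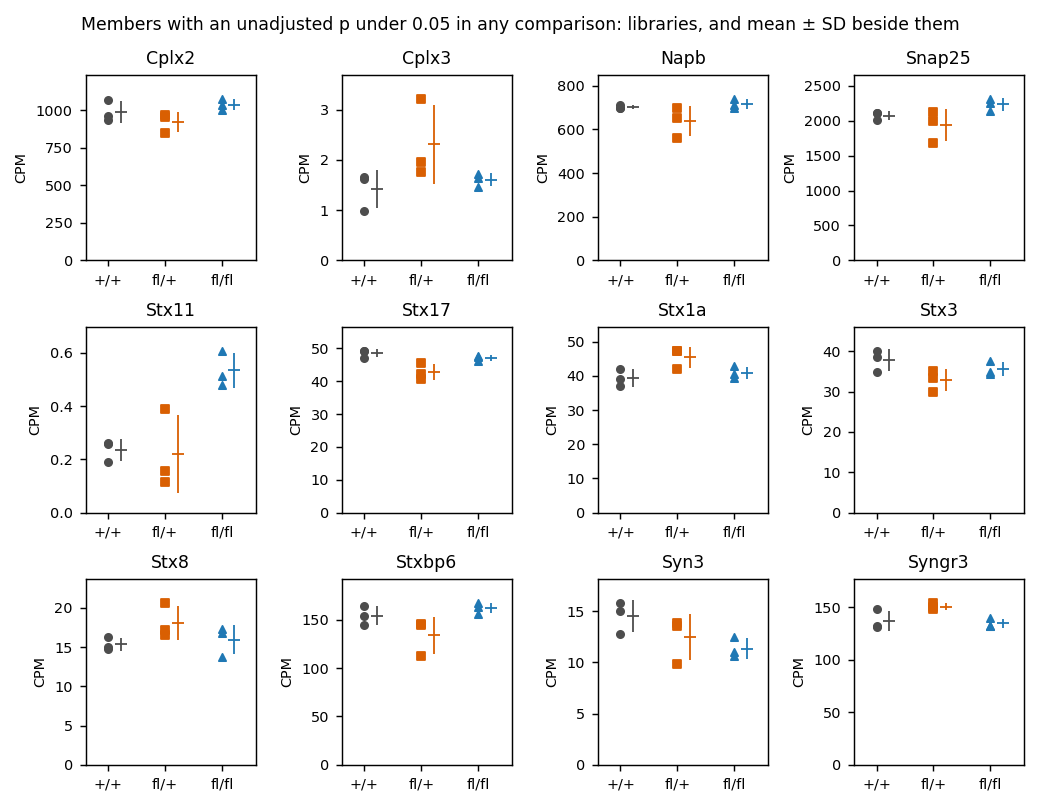
CPM in each library, with mean ± SD (n = 3) beside the points, for the 12 members with an unadjusted p under 0.05 in any comparison, on axes that start at 0. Stx11, at under 1 CPM, passed the filter on low counts only through its Dot1l(fl/fl) libraries. For Snap25 the 3 Dot1l(fl/fl) libraries lie between 2137.6 and 2314.0 CPM.

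Complexins bind the assembled bundle and hold it ready for calcium. Cplx1 lay at 850, 817 and 803 CPM in Dot1l(+/+), at 812, 896 and 830 CPM in Dot1l(fl/+), and at 875, 791 and 756 CPM in Dot1l(fl/fl), with no separation of genotypes. Cplx2 (chr13:54371349-54383917) lay at 961, 932 and 1069.6 CPM in Dot1l(+/+), at 965, 847 and 952 CPM in Dot1l(fl/+), and at 1033.2, 1075.4 and 999.9 CPM in Dot1l(fl/fl). Its homozygous libraries were above the heterozygous ones but not above the controls, and the log2 difference between the floxed genotypes was 0.17 ± 0.067 (edgeR unadjusted p = 0.0250, adjusted p = 0.733) with all libraries and 0.11 (unadjusted p = 0.0935) without Dot1l(fl/+) replicate 2. Cplx3, known from ribbon synapses of the retina, had a low level. It lay at 0.993, 1.67 and 1.62 CPM in Dot1l(+/+), at 1.96, 3.22 and 1.76 CPM in Dot1l(fl/+), and at 1.72, 1.46 and 1.64 CPM in Dot1l(fl/fl). The heterozygous libraries were above all others, and Cplx3 (chr9:57599992-57606281) differed by 0.69 ± 0.27 from Dot1l(+/+) (unadjusted p = 0.0228, adjusted p = 0.541). With Dot1l(fl/+) replicate 2 left out this was 0.37 (unadjusted p = 0.177), and without Dot1l(+/+) replicate 1 it was 0.49 (unadjusted p = 0.0981).

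With all libraries, none of the 3 fast calcium sensors had an unadjusted p under 0.05 in the edgeR test. Syt1 lay at 1232.7, 1184.3 and 1318.0 CPM in Dot1l(+/+), at 1194.5, 1172.8 and 1139.7 CPM in Dot1l(fl/+), and at 1314.8, 1272.0 and 1202.8 CPM in Dot1l(fl/fl). Every homozygous library was above every heterozygous one and inside or near the control range, with log2 differences of 0.11 ± 0.057 (edgeR unadjusted p = 0.0699, under 0.05 in 2 of 15 other settings) and 0.021 ± 0.057 (unadjusted p = 0.718). Syt2, the fast sensor of brainstem and midbrain neurons that fire at high rates, lay at 270, 306 and 269 CPM in Dot1l(+/+), at 280, 245 and 257 CPM in Dot1l(fl/+), and at 245, 258 and 274 CPM in Dot1l(fl/fl), and the genotypes overlapped. The other 13 synaptotagmins tested had log2 fold changes between -0.22 and 0.033 in Dot1l(fl/fl) against Dot1l(+/+), and none of the 13 had an unadjusted p under 0.05 in any comparison with all libraries in the edgeR test.

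The priming and active zone proteins build the site of release: Unc13 proteins open syntaxin, Rims proteins tether vesicles to calcium channels, and Bsn and Pclo are the large scaffolds. With all libraries, none of these 9 genes had an unadjusted p under 0.05 in the edgeR test. Unc13a lay at 265, 253 and 267 CPM in Dot1l(+/+), at 250, 226 and 271 CPM in Dot1l(fl/+), and at 250, 248 and 262 CPM in Dot1l(fl/fl), and overlapped. Unc13c was the only one whose libraries were apart, at 173, 175 and 180 CPM in Dot1l(+/+), at 173, 166 and 146 CPM in Dot1l(fl/+), and at 161, 159 and 168 CPM in Dot1l(fl/fl). Controls were above both floxed genotypes, by small margins, and the log2 fold change was -0.12 ± 0.060 in Dot1l(fl/+) (edgeR unadjusted p = 0.0602) and -0.11 ± 0.060 in Dot1l(fl/fl) (unadjusted p = 0.0856). Over 15 other settings the p of Unc13c was under 0.05 in 3 for Dot1l(fl/+), lowest 0.0143, and in 2 for Dot1l(fl/fl), lowest 0.0244. Between the floxed genotypes that of Rims1 was under 0.05 in 2 of 15, lowest 0.00529. Bsn differed by -0.10 ± 0.084 and Pclo by -0.060 ± 0.064 in Dot1l(fl/fl) against Dot1l(+/+), and Rims1 by 0.048 ± 0.072.

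Rims3, a short Rims protein of the active zone, was examined only after its values were seen. It lay at 304, 306 and 297 CPM in Dot1l(+/+), at 357, 270 and 398 CPM in Dot1l(fl/+), and at 287, 299 and 305 CPM in Dot1l(fl/fl). Replicates 1 and 3 of Dot1l(fl/+) were above the other 7 libraries and replicate 2 was below them, so the spread within Dot1l(fl/+) spanned all other values. The log2 fold change of Dot1l(fl/fl) against Dot1l(fl/+) was -0.20 ± 0.10 (edgeR unadjusted p = 0.0663, adjusted p = 0.778) with all libraries, and -0.35 ± 0.056 (unadjusted p = 2.61e-05, adjusted p = 0.0456) without Dot1l(fl/+) replicate 2. For Dot1l(fl/+) against Dot1l(+/+) it was 0.18 ± 0.10 (edgeR unadjusted p = 0.104, adjusted p = 0.664) with all libraries. Without that replicate it was 0.32 ± 0.056 (unadjusted p = 5.70e-05, adjusted p = 0.106). Replicates 1 and 3 were also those with hypothalamic markers at 126 and 59.0 CPM. The 5 markers of glutamate neurons of thalamus and brainstem summed to 714, 557 and 751 CPM in Dot1l(fl/+), in the same order as Rims3. They summed to 600 to 709 CPM in Dot1l(+/+) and 642 to 675 CPM in Dot1l(fl/fl). The part of either set of markers in the Rims3 values was not tested.

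Of the 7 vesicle membrane proteins tested, 6 had a positive log2 fold change in Dot1l(fl/+) against Dot1l(+/+), with a median of 0.077 beside -0.0034 over all genes, and 1, Syngr3, had an unadjusted p under 0.05. The libraries of Sv2a, Syngr1 and Syngr3 lay wholly above the controls, as those of 6.84% of all genes did. In the same comparison 6 of 8 oligodendrocyte markers were positive, with a median of 0.10 and an unadjusted p under 0.05 for 3, and their summed level was 10507.6 to 11545.8 CPM in Dot1l(+/+), 10670.4 to 12055.4 CPM in Dot1l(fl/+) and 10716.5 to 11216.9 CPM in Dot1l(fl/fl). Of these 8 markers, 7 were negative in Dot1l(fl/fl) against Dot1l(fl/+), with a median of -0.13 and an unadjusted p under 0.05 for 5, beside 6 of the 7 vesicle membrane proteins with a median of -0.072. The part of the oligodendrocyte markers in these values was not tested. In Dot1l(fl/fl) against Dot1l(+/+) 4 were positive and 3 negative, with a median of 0.00079. Syngr3, a synaptogyrin that interacts with the dopamine transporter, lay at 148, 131 and 132 CPM in Dot1l(+/+), at 148, 150 and 154 CPM in Dot1l(fl/+), and at 132, 140 and 132 CPM in Dot1l(fl/fl). The heterozygous libraries were the highest, by a narrow margin over 1 control. Syngr3 (chr17:24685092-24689955) was higher in Dot1l(fl/+) than in Dot1l(+/+) by 0.14 ± 0.055 (edgeR unadjusted p = 0.0250, adjusted p = 0.541) and lower in Dot1l(fl/fl) than in Dot1l(fl/+), by -0.17 ± 0.055 (unadjusted p = 0.00899, adjusted p = 0.708). With the term for gene length and GC content the first of these was 0.083 (unadjusted p = 0.103). Syp lay at 992, 995 and 1038.9 CPM in Dot1l(+/+), at 1029.1, 1130.5 and 1127.4 CPM in Dot1l(fl/+), and at 1023.8, 1101.1 and 1002.0 CPM in Dot1l(fl/fl), and the genotypes overlapped. The log2 fold change of Syp in Dot1l(fl/+) against Dot1l(+/+) was 0.12 ± 0.057 (unadjusted p = 0.0567), with an unadjusted p under 0.05 in 9 of 15 other settings.

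The 3 Sv2 proteins are transporter-like glycoproteins of the vesicle. Sv2a lay at 677, 694 and 679 CPM in Dot1l(+/+), at 719, 695 and 736 CPM in Dot1l(fl/+), and at 663, 702 and 686 CPM in Dot1l(fl/fl). Sv2b ranged from 249 to 352 CPM over the 9 libraries with no order by genotype. Sv2c lay at 110, 114 and 113 CPM in Dot1l(+/+), at 131, 80.6 and 110 CPM in Dot1l(fl/+), and at 100, 101 and 109 CPM in Dot1l(fl/fl). The homozygous Sv2c libraries were all below the controls, with a log2 fold change of -0.13 ± 0.12 (95% interval -0.39 to 0.13, edgeR unadjusted p = 0.304), and the heterozygous ones spanned both. Over 15 other settings the unadjusted p of Sv2c in this comparison lay between 0.0165 and 0.469 and was under 0.05 in 3.

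Synapsins tether vesicles in the reserve pool. Syn1 and Syn2 overlapped between genotypes, with log2 fold changes of 0.019 ± 0.058 and 0.078 ± 0.055 in Dot1l(fl/fl) against Dot1l(+/+). Syn3, the least abundant synapsin in these libraries, lay at 15.8, 15.0 and 12.8 CPM in Dot1l(+/+), at 13.9, 9.89 and 13.6 CPM in Dot1l(fl/+), and at 12.5, 11.0 and 10.6 CPM in Dot1l(fl/fl). The homozygous libraries were below the controls, with the heterozygous ones spread over both. Syn3 (chr10:86055125-86498896) differed by -0.35 ± 0.14, a mean 21.5% lower with a 95% interval of the log2 value from -0.65 to -0.054 (edgeR unadjusted p = 0.0238, adjusted p = 0.999), and was the only member at 1 CPM or more with an unadjusted p under 0.05 in this comparison. Leaving out Dot1l(+/+) replicate 1 or 2, or Dot1l(fl/fl) replicate 2 or 3, left log2 differences of -0.29 to -0.33 with unadjusted p from 0.0646 to 0.0873. Exons of Timp3 on the opposite strand cover 14.1% of the exon bases of Syn3, and whether the counts used strand is not given in the sources used here, so part of its reads may belong to that gene.

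Nsf, Napa and Napb take SNARE bundles apart after fusion. Nsf lay at 1244.4, 1262.7 and 1205.8 CPM in Dot1l(+/+), at 1257.5, 1308.9 and 1202.3 CPM in Dot1l(fl/+), and at 1313.0, 1287.6 and 1273.1 CPM in Dot1l(fl/fl). The homozygous libraries were all above the controls, yet by only 0.061 ± 0.051 on the log2 scale (edgeR unadjusted p = 0.253). Napb, the brain-specific beta-SNAP (chr2:148693985-148732467), lay at 698, 699 and 713 CPM in Dot1l(+/+), at 697, 561 and 652 CPM in Dot1l(fl/+), and at 740, 712 and 697 CPM in Dot1l(fl/fl). All 3 heterozygous libraries were below the controls, by -0.14 ± 0.069 on the log2 scale (edgeR unadjusted p = 0.0570), with an unadjusted p of 0.0077 to 0.266 over 15 other settings and under 0.05 in 4 of them. With 1 library left out in turn this difference lay between -0.21 and -0.061, and the p of 0.266 was that without Dot1l(fl/+) replicate 2. The difference between the floxed genotypes was 0.17 ± 0.069 (unadjusted p = 0.0279, adjusted p = 0.733) with all libraries and 0.087 (unadjusted p = 0.118) without Dot1l(fl/+) replicate 2, the lowest. Napa, the more widely expressed alpha-SNAP, differed by at most 0.043 in size between any pair of genotypes.

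**Figure D4:**
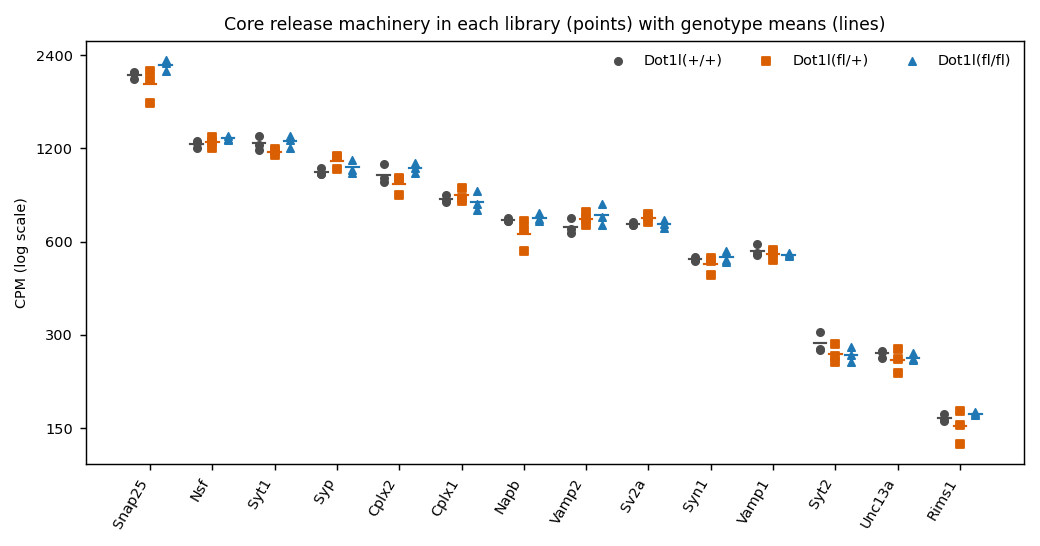
CPM on a logarithmic axis of 14 core members in each of the 9 libraries, with lines at the genotype means. The genotypes overlap for most genes, and the lowest heterozygous square, replicate 2, stands below the others for Snap25 (1677.6 CPM) and Napb (561 CPM).

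A single library recurred in these values. Dot1l(fl/+) replicate 2 was the lowest of all 9 libraries for 21 and the highest for 18 of the 71 tested members, or 54.9% of them, beside 34.4% of all genes tested. For the other 8 libraries the share of members was 11.3% to 35.2%. Among the 62 members at 20 CPM or more, replicate 2 lay more than 10% below the lowest of the other 8 libraries for 9, among them Napb, Rims1, Rims2, Snap25, Stx16, Stxbp5l, Stxbp6 and Sv2c. It lay more than 10% above the highest of the others for 0 members, and each of the other 8 libraries stood apart in this way for at most 3. Rims2, which acts beside Rims1 at calcium channels, lay at 72.0, 50.0 and 66.2 CPM in Dot1l(fl/+) and at 56.3 to 66.3 CPM in the other 6 libraries. Of the 7 members with an unadjusted p under 0.05 in Dot1l(fl/fl) against Dot1l(fl/+), Snap25, Napb and Cplx2 had smaller log2 differences without that library, 0.11, 0.087 and 0.11, with unadjusted p of 0.0574, 0.118 and 0.0935. For Stx17 the difference was 0.13 without it (unadjusted p = 0.0695), about as large as the 0.14 with all libraries. Another 7 members then had an unadjusted p under 0.05, namely Rims2, Rims3, Stx12, Sv2c, Syn3, Syt9 and Vamp7. In that edgeR fit 9.79% of all genes were under this threshold, beside 6.48% with all libraries.

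**Figure D5:**
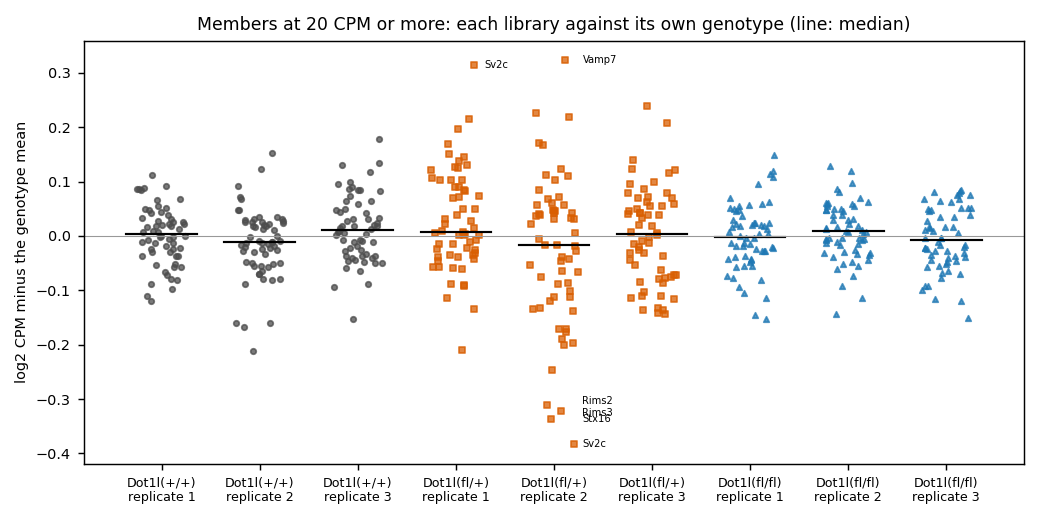
Log2 CPM of members at 20 CPM or more minus the mean of its own genotype, by library; the line is the median and members more than 0.25 from zero are named. The points of Dot1l(fl/+) spread most, and only its replicates 1 and 2 hold members beyond 0.25.

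Gene length moved with the heterozygous comparison. Sorted by exon length into 5 classes of like size, the median log2 fold change of all genes in Dot1l(fl/+) against Dot1l(+/+) went from 0.079 in the shortest class to -0.044 in the longest, and that of Dot1l(fl/fl) against Dot1l(+/+) from 0.034 to -0.020. The members are long genes, with a median exon length of 5205 bases against 3972.5 bases for all genes, and 23 of the 71 fell in the longest class. With length and GC content as a term, the median of the members in Dot1l(fl/+) against Dot1l(+/+) was -0.0030 in place of -0.022.

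Of a list of 47 other genes of the presynaptic terminal, which are not members, 46 were tested. In Dot1l(fl/fl) against Dot1l(+/+), 1 had an unadjusted p under 0.05 upward and 1 downward (2.17% in each direction, against 2.21% and 1.72% of all genes). The latter was Slc18a2, the vesicular monoamine transporter, which also belongs to the dopamine neuron markers. Slc18a2 lay at 89.0, 83.6 and 83.3 CPM in Dot1l(+/+), at 74.0, 78.6 and 53.5 CPM in Dot1l(fl/+), and at 54.2, 52.5 and 53.3 CPM in Dot1l(fl/fl). All 3 homozygous libraries were below every control, by -0.68 ± 0.11 (unadjusted p = 2.23e-05, adjusted p = 0.197). In Dot1l(fl/+) against Dot1l(+/+) 1 of the 46 was higher (Sncb, 0.22) and 2 were lower (Ppfia2, -0.17, and Slc18a2, -0.31), or 2.17% and 4.35% against 4.30% and 4.09% of all genes, and in Dot1l(fl/fl) against Dot1l(fl/+) 6 were higher and 3 lower at that threshold (13.0% and 6.52%, against 3.60% and 2.87% of all genes).

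The dopamine neuron markers also differed between Dot1l(fl/fl) and Dot1l(+/+) in the same libraries, but they give no scale for the members. They mark the cells in which Cre acts, while most members are expressed in neurons of every kind. With no cut on level, 10 of 10 of these markers had a negative log2 fold change in this comparison, with a median of -0.44. In the edgeR test 7 of 10 had an unadjusted p under 0.05, where 1.72% of all genes were lower at that threshold. For the 62 members at 20 CPM or more the log2 fold changes with all libraries lay between -0.13 and 0.13, and 0 had an unadjusted p under 0.05. Syn3, which averaged 12.8 CPM, fell below that cut on level, with -0.35 (edgeR unadjusted p = 0.0238). In fits of these 2 genotypes alone, members at 20 CPM or more with an unadjusted p under 0.05 were Snap25, Sv2c and Unc13c in edgeR, and those 3 with Syt2 and Vamp2 in DESeq2.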

How the data were processed

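Total RNA of dissected midbrain (9 libraries, 3 per genotype, each a pool of mice) was sequenced by the authors after directional library preparation. Per the submitters' processing notes, the tools were bcl2fastq 2.17, Trimmomatic 0.30 and DESeq2 1.10.1, with genome build GRCm38.p4. The aligner, counting tool, annotation and strand setting are not given in the sources used here. The deposited values used are the authors' raw counts per Ensembl gene. The deposited tables of the authors' DESeq2 comparisons (log2 fold changes, standard errors and p-values) were not used.

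Members were found through GENCODE M21 symbols (47310 of 47729 identifiers, 99.9% of counts). The members and all gene lists were chosen with earlier results of these data known. Counts were scaled by TMM (factors 0.988 to 1.01), filtered with filterByExpr and fitted with edgeR 4.0.16 (glmQLFit, glmQLFTest) in R 4.3.3, with genotype as the only term over all 9 libraries (common biological coefficient of variation 8.81%). Intervals cover 95%. RPKM used exon-union lengths. Scripts were tested on simulated data. Named were the core members, those with an unadjusted p under 0.05 in any comparison, and those at 1 CPM or more whose libraries were apart with a log2 fold change over 0.3 in size; other presynaptic genes only under an unadjusted p of 0.05; Rims3 was added after its values were seen.

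Alternatives were fits of 2 genotypes alone, DESeq2 1.42.0, DESeq2 size factors, no filter, a filter that asked for 10 counts per library, blocking on replicate number, a length and GC offset (available for 99.6% of tested genes), and leaving out each library. The study's methods describe pools drawn as paired sets of the genotypes, but neither they nor the labels say which libraries form a set, so p-values measure the spread between pools. The chi-square per degree of freedom between replicates of a genotype was 4.34 to 16.3, so none of these pairs looked like a duplicate deposit of 1 library, which is all this checks. Exons of 6 members overlap another gene over more than 10% of their bases (Snap47, Stx18, Syn3, Syp, Syt12 and Syt4), and Vamp7 and Stxbp3 have annotated pseudogenes, so their counts are less certain. A few genes are counted among the totals but not reported here by name or drawn in the figures.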

Additional observations from a re-analysis of the deposited data

How the results depend on the processing

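Of 81 counts and medians recomputed under other settings with all libraries, 70 were classed as the same as the main fit. Of 54 recomputed without 1 library, 38 were. That class took in counts of 5 and of 10 where the main fit gave 7. It also took in counts past an adjusted p of 0.05 that stayed at 0, where no gene passed in the main fit. Members under an unadjusted p of 0.05 in Dot1l(fl/+) against Dot1l(+/+) numbered 7, and 13 with no filter on low counts (7.61% of all genes); without 1 library they ranged from 4 (without Dot1l(+/+) replicate 3; 5.45% of all genes) to 18, 5 higher and 13 lower (without Dot1l(fl/+) replicate 1; 12.5% of all genes). In Dot1l(fl/fl) against Dot1l(+/+) they numbered 2, but 5 in edgeR on 2 genotypes alone (5.57% of all genes), 6 in DESeq2 on 2 genotypes alone (2.12%), 5 with no filter (4.27%), 1 with at least 10 counts in every library (Syn3; 3.74%), 1 (1.74%) in DESeq2 on all 9 libraries and 0 to 2 without 1 library (0 without Dot1l(+/+) replicate 1 or 2 or Dot1l(fl/fl) replicate 2, where 2.94%, 3.81% and 2.13% of all genes were called, and 1 without Dot1l(fl/fl) replicate 3, where 5.26% were). Without Stx11, which passed the filter through Dot1l(fl/fl) alone, the 2 become 1, and the 5 become 4 in edgeR on 2 genotypes and with no filter. In Dot1l(fl/fl) against Dot1l(fl/+) they numbered 7, and 11 with no filter (6.34% of all genes), ranging from 4 (without Dot1l(fl/fl) replicate 1; 5.37%) to 11 (without Dot1l(fl/+) replicate 1; 9.37%). The count past an adjusted p of 0.05 stayed at 0 in the 3 comparisons, except in Dot1l(fl/fl) against Dot1l(fl/+), where it was 1 with no filter (Stxbp6, adjusted p = 0.00224 in edgeR) and 0 to 1 without 1 library (Rims3 without Dot1l(fl/+) replicate 2). The median of the members in Dot1l(fl/+) against Dot1l(+/+) moved from -0.022 to -0.0066 with no filter, -0.0030 with the length and GC offset, -0.0032 with that offset and the replicate block, and between -0.023 and 0.018 without 1 library; in Dot1l(fl/fl) against Dot1l(fl/+) it lay between -0.019 and -0.0025 without 1 library. The causes were not tested. All DESeq2 fits had no filter on low counts, so their shares of all genes take in genes with few counts.

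Replicate numbers 1 to 3 recur in every genotype, and the study's methods describe pools drawn as paired sets, but neither labels nor methods tie the numbers to those sets. Deviations of same-numbered libraries correlated at 0.0222 to 0.317, over 0.1 in 6 of 9 pairs, and those of differently numbered ones at -0.267 to 0.108; 6 of 9 libraries correlated best with their own number. With the replicate number as a block, 10, 2 and 8 members had an unadjusted p under 0.05 in the 3 comparisons (9.34%, 4.43% and 7.12% of all genes) and 0 an adjusted p under 0.05. The block added Napb, Stxbp5l and Syp in Dot1l(fl/+) against Dot1l(+/+), and Stxbp5l in Dot1l(fl/fl) against Dot1l(fl/+). Genes under about 1 CPM, such as Stx11, are limited by depth: their intervals allow changes of more than 1 on the log2 scale.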
